A study of Mus musculus with 6 samples.

Results

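Cytosolic ribosomal protein genes were compared between splenic Treg cells of 3 WT and 3 KO mice. WT mice carried Foxp3Cre, in which the endogenous Foxp3 promoter drives a Cre-YFP fusion protein, and KO mice carried Foxp3Cre together with miR-142fl/fl alleles, so that miR-142 was deleted in cells that express Foxp3. All mice were females of 8 to 11 weeks on a C57BL/6 background. CD4+YFP+ cells were sorted from each spleen, and each mouse gave 1 RNA-seq library. KO mice develop a fatal autoimmune disease, so KO Treg cells came from inflamed hosts, and the deletion and the inflammation cannot be told apart in this design. The genes were chosen by their symbols alone, as rows named Rpl, Rps, Rplp or Rpsa with a number where one applies, leaving out pseudogenes. They were 84 of the 24421 genes in the count matrix, 51 of the large subunit and 33 of the small subunit, and lay on 19 chromosomes. Of the 84 genes, 79 passed the filter (CPM, the count of a gene scaled to the total counts of its library, above 1 in at least 3 libraries) and were tested.

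The cytosolic ribosome translates every mRNA made from nuclear genes. Its proteins are the small (Rps) and large (Rpl) subunit proteins and the stalk proteins Rplp0, Rplp1 and Rplp2 that recruit translation factors. Most of the subunit proteins are made in nearly equal amounts, which need not hold for the stalk proteins or for paralogues. Many mRNAs of ribosomal proteins begin with a cytosine followed by a run of pyrimidines, the 5′ terminal oligopyrimidine (TOP) motif. Through it mTORC1 and the RNA-binding protein Larp1 control their translation. In T cells, activation raises ribosome production, and mTORC1 and Myc are among its known drivers. A change in translation of a TOP mRNA need not alter its read count, which measures RNA level only.

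A single gene of the 79 tested passed the test for a change in KO Treg cells. Rps27l, a paralogue of the small subunit gene Rps27 that is known as a p53 target, rose 2.18-fold (95% interval 1.71 to 2.77). None of the other 78 genes passed an FDR of 0.05 in edgeR's quasi-likelihood (QLF) test, in which their lowest adjusted p was 0.119. The number called was 1 of 79 (1.27%), against 18.8% of all genes tested (11.6% higher and 7.27% lower). The share of all genes called depended on single libraries, with 5.98% without WT replicate 2, 6.85% without WT replicate 3, 8.87% without WT replicate 1 and 13.2% to 20.4% without 1 KO library, while Rps27l was the 1 ribosomal protein gene called in each of these fits. At an unadjusted p under 0.05 there were 2 genes of 79, against 34.8% of all genes tested. The median log2 fold change of the 79 genes was -0.03, against 0.02 for all genes tested, and 43 of the 79 lay below 0.

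The sequences of the deleted miRNA and of the site in Rps27l are given first, because Rps27l was the single gene called. miR-142 gives 2 mature miRNAs (RefSeq, GRCm38.p6), whose seed, bases 2 to 8, is in capitals here:
miR-142a-3p: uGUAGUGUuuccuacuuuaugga
miR-142a-5p: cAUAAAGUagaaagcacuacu
The matches searched for on the transcribed strand of each gene's longest annotated 3′ UTR were ACACTAC (bases 2 to 8 of miR-142a-3p), AACACTA (its bases 3 to 9, which overlaps the first by 6 letters) and ACTTTAT (bases 2 to 8 of miR-142a-5p). Of the 83 genes with an annotated 3′ UTR, 3 (3.61%) held a 3p match and 4 (4.82%) a 5p match, against 14.1% and 15.9% of the other genes tested. Their 3′ UTRs were short, with a median of 173 bases against 1192 in the other genes.

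The Rps27l match is printed with its flanks and with the 7 matching letters in capitals (chr9:66949350-66949356, GRCm38, plus strand, exon 5 of 5 of the transcript ENSMUST00000127896):
Rps27l: aagaaagcAACACTAatgagctatg
In that transcript the match starts at base 9 of a 3′ UTR of 173 bases. In the transcript ENSMUST00000040917, the one taken to represent the gene, the same bases lie in the end of the coding sequence and reach into the stop codon, which ends at position 66949357. The library counts do not separate the 2 transcripts. The matches in other genes of the group were ACACTAC in Rps15a and Rps20, AACACTA at 2 further positions of Rps15a, and ACTTTAT in Rpl15, Rpl22l1, Rpl31 and Rps25. None of these 6 genes passed the QLF test. The matches in Rpl15 and Rpl31 lie outside the exons of the transcript taken to represent each gene. Rps15a, a small subunit gene, stood at 398 ± 44.7 CPM in WT against 313 ± 39.3 CPM in KO libraries (mean and SD of 3), and Rps20, also of the small subunit, at 207 ± 22.4 against 205 ± 25.8 CPM. A match of 7 letters is a description of the sequence and shows no binding.

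Start sites were read from RefSeq promoters (GRCm38.p6) for 63 of the 84 genes. A start of C followed by 4 pyrimidines, as in a TOP motif, was found in 13 genes (20.6%), against 3.12% of the tested genes in the same table and 3.01% of all 27025 genes in it. CTTTC or CTTTT (read on the transcribed strand, and counted once where both occur) lay within 25 bases of the annotated start in 23 genes (36.5%), against 11.6% and 13.2%. The windows of 30 bases below, 15 before the start and 15 from it with the first 5 transcribed bases in capitals, show 4 members with this start and, for contrast, Rps27l and Rpl4, the gene with the most counts:
Rps6: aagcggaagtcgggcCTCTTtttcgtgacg
Rpl38: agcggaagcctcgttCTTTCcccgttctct
Rplp2: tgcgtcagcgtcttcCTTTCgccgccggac
Rps27: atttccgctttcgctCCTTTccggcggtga
Rps27l: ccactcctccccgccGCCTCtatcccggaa
Rpl4: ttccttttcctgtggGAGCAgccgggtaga
These windows lie at chr4:86857353-86857382 (Rps6, minus strand), chr11:114668565-114668594 (Rpl38, plus), chr7:141447636-141447665 (Rplp2, plus), chr3:90213634-90213663 (Rps27, minus), chr9:66946071-66946100 (Rps27l, plus) and chr9:64173372-64173401 (Rpl4, plus). The table gives a second start for Rps27l (window chr9:66946398-66946427, plus strand), which reads GTCAC, and neither of its 2 starts opens with C and 4 pyrimidines. A gene with several starts was counted where any of them matched. An annotated start may differ by some bases from the one used in Treg cells, so a window without a pyrimidine run says only that these letters are absent from it.

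The libraries held between 13883069 and 24042994 counts on genes, so that 3 counts, taken as the floor, equalled 0.125 to 0.216 CPM. Mir142b, which overlaps the targeted miRNA on the opposite strand, fell from 6.53 ± 2.70 to 0.358 ± 0.0196 CPM (log2 fold change -4.07, SE 0.39), as a check of the labels. Bzrap1 took 2.07% to 2.43% of all counts in the KO libraries and at most 0.00836% in the WT libraries. The 7 Treg markers, Foxp3 and Cd4 among them, were above 173 CPM in every library. KO replicate 1 also carried markers of other cells. The summed level of 12 monocyte and macrophage genes was 2766 CPM in it and 10 to 75.2 CPM in the other 5 libraries, that of 13 neutrophil genes 1005 against 4.44 to 48.8 CPM, and that of 9 B cell genes 294 against 8.72 to 43.4 CPM. It had the highest level of 12 of 13, 12 of 12 and 9 of 9 of these genes. Of 7 CD8 and NK genes and 6 erythroid genes it had the highest level of 6 and 2, with 63.6 against 18.5 to 24.7 CPM and 11.6 against 0.787 to 1.73 CPM in sum, and 4 of the erythroid genes had 0 counts throughout. Results are therefore also given without KO replicate 1. In a bulk library, fewer cells of a type and less RNA per cell cannot be told apart.

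Rps27l (ENSMUSG00000036781, chr9:66946086-66949516, GRCm38, plus strand) had CPM of 11.9, 10.9 and 10.1 in the WT libraries and of 25.7, 19.0 and 22.9 in the KO libraries, each in the order of replicates 1 to 3 as for all values by library here. The groups did not overlap, and each KO library lay above the highest WT library. The log2 fold change was 1.12 (SE 0.15, FDR = 0.00394 in the QLF test), and an exact two-sided permutation test of log2(CPM + 0.5) gave p = 0.1, the smallest that 3 against 3 can give. Without KO replicate 1 it was 1.0 (FDR = 0.0040), and over the 6 fits that each left out 1 library it lay between 1.0 and 1.23, with an adjusted p between 0.0038 and 0.0286. It ranked 716 of 11658 genes by fold change. Its mean level was 33.6 CPM per kilobase of transcript, above that of 34 of the 79 genes tested, whose median was 55.4. Length here is that of 1 annotated transcript per gene, such as 499 bases for Rps27l and 5130 for Rps15a. Levels per kilobase and their order depend on that choice.

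**Figure D1:**
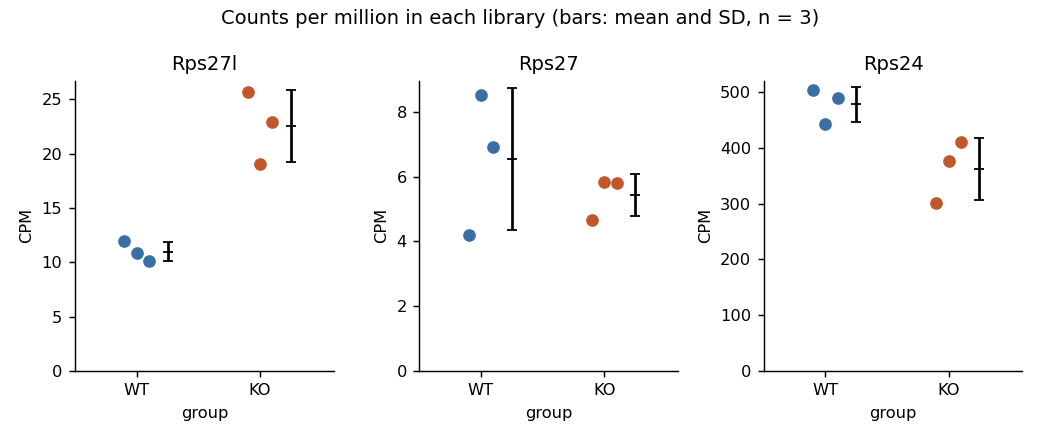
CPM (y axis, from 0) of Rps27l, Rps27 and Rps24 in each of the 3 WT (blue) and 3 KO (orange) libraries, with the mean and SD of each group as a bar. The KO libraries of Rps27l lie between 19.0 and 25.7 CPM and the WT libraries between 10.1 and 11.9, those of Rps27 overlap, and those of Rps24 lie below WT without passing the FDR threshold.

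Rps27, its paralogue (chr3:90212522-90213651, GRCm38, minus strand), had 4.2, 8.53 and 6.92 CPM in WT against 4.68, 5.83 and 5.80 CPM in KO. The KO values lay within the WT range, and the log2 fold change was -0.20 (95% interval -0.88 to 0.49). The ratio of Rps27l to Rps27 was 2.85, 1.28 and 1.46 in WT and 5.49, 3.26 and 3.95 in KO. The ratios did not overlap, with a mean of 1.86 ± 0.86 in WT and 4.24 ± 1.14 in KO (SD, n = 3 per group). The log2 difference was 1.24, with p = 0.1 in an exact two-sided permutation test and 0.5 after adjustment over 5 pairs, and it lay between 1.02 and 1.6 when each library was left out in turn. Only 1.36% of the 51-base windows of the Rps27 transcript are found in no other gene.

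The other 4 paralogue pairs did not separate by genotype. Rpl22l1 is a paralogue of Rpl22, a large subunit gene that is needed for αβ T cell development, and their ratio was 0.126 ± 0.028 in WT and 0.113 ± 0.013 in KO (log2 difference -0.15, exact permutation p = 0.6, adjusted 0.875, n = 3 per group). The ratio of Rpl7l1 to Rpl7 was 0.164 ± 0.011 and 0.142 ± 0.034 (log2 difference -0.23, exact permutation p = 0.4, adjusted 0.875, n = 3). Rps4l to Rps4x, a small subunit pair with the second gene on the X chromosome, gave 0.0080 ± 0.0027 and 0.0068 ± 0.0024 (log2 difference -0.26, exact permutation p = 0.7, adjusted 0.875, n = 3), from a Rps4l level of 1.01 to 3.10 CPM. Rpl36al to Rpl36a gave 20.8 ± 2.6 and 21.6 ± 12.5 (log2 difference -0.09, exact permutation p = 0.9, n = 3), with Rpl36a at 0.607 to 1.44 CPM over all libraries. For Rpl3, Rpl10 and Rpl39 the paralogue did not pass the filter. Rpl3 was at 75.3 ± 11.4 CPM in WT against 74.4 ± 5.67 in KO, Rpl39 had 85.3 ± 19.5 and 72.8 ± 2.08 CPM, and Rpl10 had 15.9 ± 5.73 and 11.2 ± 1.74 CPM.

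The 5 genes that were not tested were near or at 0. Rpl10l and Rpl26 had 0 counts in all 6 libraries, and Rpl3l, which is known from muscle, had at most 0.269 CPM. Rpl39l, a paralogue known from testis, had 0.387, 0.665 and 0.394 CPM in WT against 0.108, 0.144 and 0.472 CPM in KO. Rpl30 had 0.202 to 0.860 CPM. Rpl26 and Rpl30 encode proteins found in every cytosolic ribosome, and the cause of their counts near 0 was not tested.

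The 3 genes with the most counts, Rpl4, Rps3 and Rpl8, had log2 fold changes with SEs of 0.124, 0.116 and 0.127. The median SE of the 40 genes with a mean of at least 50 CPM was 0.121. Rpl4, a large subunit gene, had 2076, 1764 and 1854 CPM in WT against 1571, 1908 and 2011 CPM in KO. Rps3, a small subunit protein at the mRNA entry channel, had 1559, 1347 and 1365 CPM in WT against 1238, 1405 and 1569 CPM in KO. Rpl8, a large subunit gene, had 1372, 1127 and 1218 CPM in WT against 1015, 1229 and 1319 CPM in KO. In each of the 3 genes KO replicate 1 was the lowest library and KO replicates 2 and 3 lay within the WT range or, for Rps3 in replicate 3, just above it. Their log2 fold changes were 0.03 (95% interval -0.26 to 0.32), 0.06 (-0.21 to 0.34) and 0.02 (-0.27 to 0.32).

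The fold change intervals set bounds on what could have gone unseen. Among 40 genes with a mean of at least 50 CPM, 38 (95%) had a 95% interval inside 1.5-fold in either direction, against 66.2% of the 4589 tested genes at that level, and over all levels it was 51 of the 79 genes, against 44.3%. Their log2 fold changes lay between -0.32 and 0.14, and none was called, against 20.3% of all genes at that level. The SD of the log2 fold changes was 0.13 over these 40 genes and 0.56 over the 4549 other genes. The SD of log2 CPM within a group was not smaller in the ribosomal protein genes, with a median of 0.159 against 0.134 in the other genes. Of the 39 genes with a lower mean level that were tested, 13 had an interval inside 1.5-fold, so the intervals of the other 26 did not bound the change to that size. The interval of Rpl13, for example, ran from -1.19 to 0.39, and it had 67.0 CPM in WT replicate 3 and 27.1 to 32.5 CPM in the other 5 libraries.

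**Figure D2:**
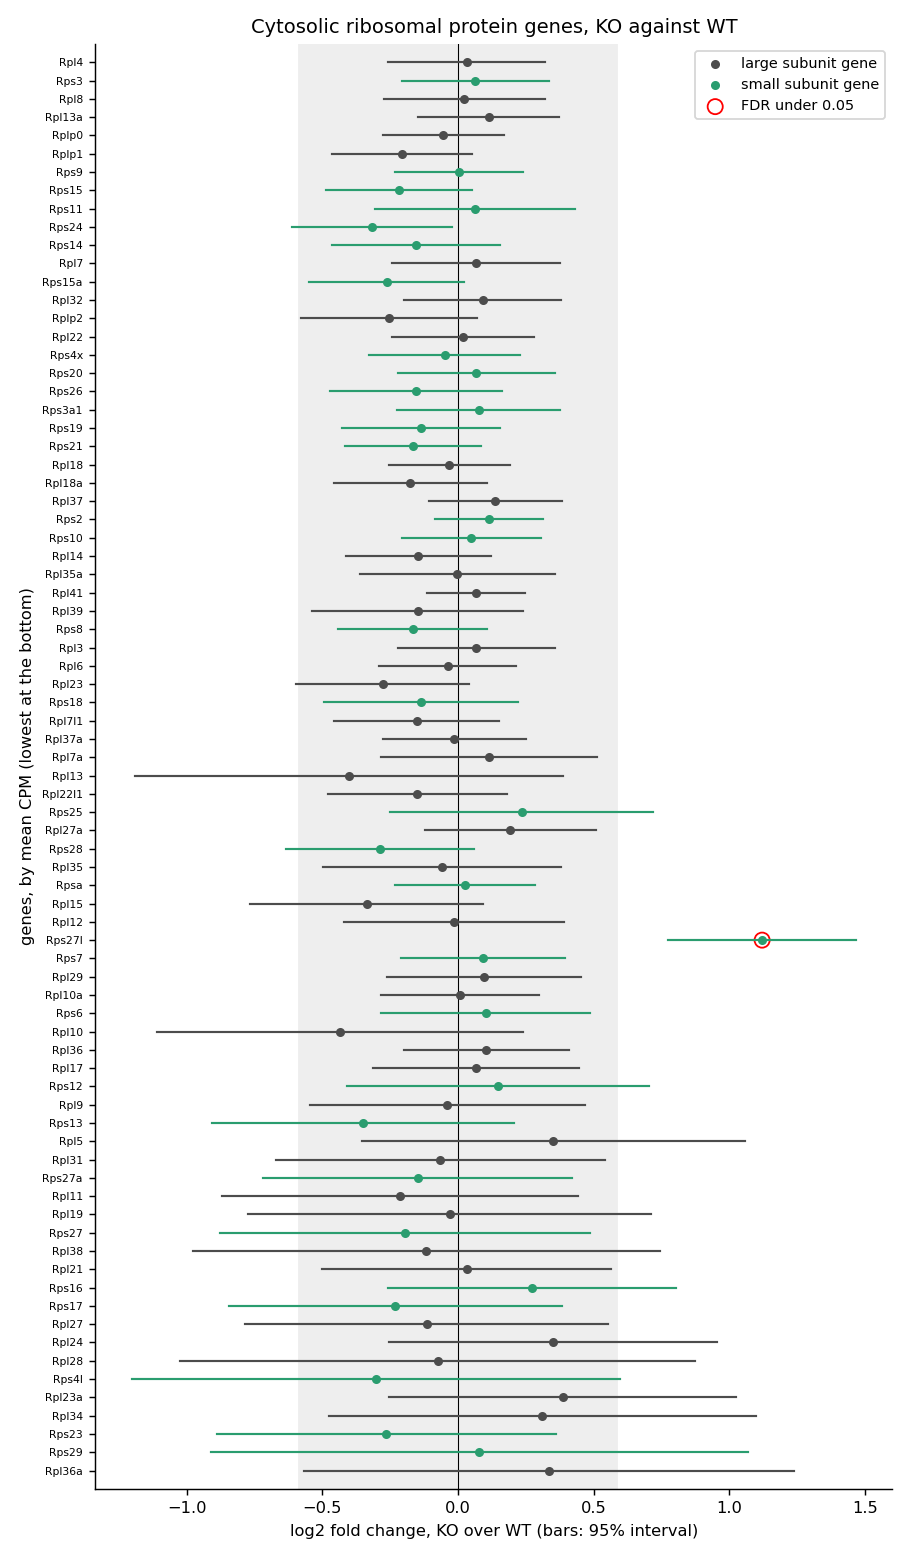
Log2 fold change (KO over WT, x axis) of 78 of the 79 genes tested with its 95% interval, ordered from the lowest mean CPM at the bottom to the highest at the top. The grey band spans 1.5-fold either way, and the red ring marks an FDR under 0.05. Rps27l stands alone at 1.12, and the intervals narrow toward the top, where 37 of the 39 genes drawn that have at least 50 CPM lie inside the band.

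**Figure D3:**
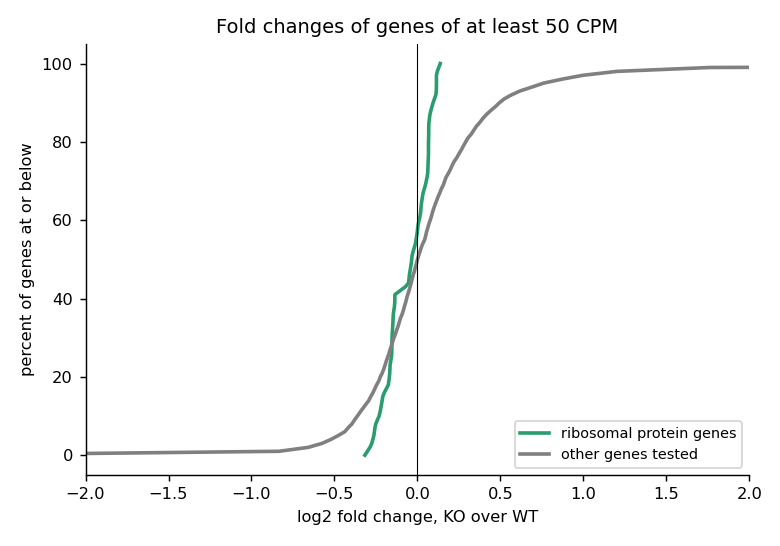
Cumulative percent of genes (y axis) at or below a log2 fold change (x axis, shown from -2 to 2) for the 40 ribosomal protein genes of at least 50 CPM (green) and the 4549 other tested genes at that level (grey). The green line climbs between -0.32 and 0.14, and the grey line is wider, with its 10th and 90th percentiles at -0.36 and 0.49.

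For 6 of the 79 genes (7.59%) the CPM of the groups did not overlap, against 42.6% of all genes tested. Rps27l was the gene above, as were 16.7% of all genes tested, and 5 genes lay below, Rps15, Rps24 and Rplp1 among them, with 25.9% of all genes tested having all KO libraries below WT. The genes named here were chosen after their values were seen, and none of the 5 passed the FDR threshold. These CPM are scaled to library totals only. After the TMM scaling used in the test, the groups overlapped for Rplp1. Its log2 CPM minus its own mean was -0.033 in WT replicate 3 and -0.009 in KO replicate 3. Rps24, a small subunit gene, had 504, 444 and 489 CPM in WT against 301, 377 and 410 CPM in KO. Its log2 fold change was -0.32 with an SE of 0.13, and its adjusted p in the QLF test was 0.119. In each of these 5 genes KO replicate 1 was the lowest library. Without it, the number of genes with an unadjusted p under 0.05 went from 2 to 1, and Rps27l was the gene left. In that fit 33.0% of all genes tested had such a p.

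Neither subunit had more than 1 gene called. Of the 46 large subunit genes tested none was called. Of the 33 small subunit genes Rps27l was called (3.03%), against 18.8% of all genes tested. The median log2 fold change was -0.01 for the large subunit genes (range -0.43 to 0.39) and -0.14 for the small subunit genes. Their interquartile ranges overlapped, from -0.14 to 0.09 and from -0.22 to 0.08. The stalk genes Rplp0, Rplp1 and Rplp2 had log2 fold changes of -0.05, -0.21 and -0.25, none past the threshold. The summed counts of large over small subunit genes were 1.2, 1.22 and 1.21 in WT and 1.28, 1.28 and 1.25 in KO. The ratios did not overlap, with means of 1.21 ± 0.0077 and 1.27 ± 0.017 (SD, n = 3 per group). With the 5 genes whose KO libraries all lay below WT left out of the sums, the ratios were 1.68, 1.70 and 1.70 in WT and 1.71, 1.72 and 1.68 in KO, which overlapped. In the 36 genes with at least 50% of their 51-base windows found in no other gene, the ratios were 0.92, 0.946 and 0.942 in WT and 0.987, 1.004 and 0.978 in KO, which did not overlap. A sum is led by its few most abundant genes, and no test was run on it.

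All ribosomal protein genes together took 1.74%, 1.47% and 1.56% of the counts of the WT libraries and 1.29%, 1.49% and 1.61% of those of the KO libraries. The groups overlapped, with 1.59% ± 0.14 in WT and 1.46% ± 0.16 in KO (SD, n = 3 per group). With Bzrap1 left out of the totals the KO libraries were at 1.32%, 1.52% and 1.64% (1.49% ± 0.16). Without KO replicate 1 the KO mean was 1.55%.

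The spread between libraries was shared by most of the genes. Of the 40 genes of at least 50 CPM, 34 had their lowest CPM in KO replicate 1 and 26 had their highest in WT replicate 1. On the TMM-scaled log2 scale, 37 of the 40 lay above their own mean in WT replicate 1, 10 in WT replicate 2, 22 in WT replicate 3, 2 in KO replicate 1, 23 in KO replicate 2 and 35 in KO replicate 3. KO replicates 1 and 3 thus stood on opposite sides, and the 2 groups overlapped. KO replicate 1 was also the library with the markers of monocytes, macrophages and neutrophils given above, and the part of these cells in its lower ribosomal protein level was not tested. The median log2 fold change over the genes tested was -0.03 with all libraries and 0.02 without KO replicate 1, where the median of all genes was -0.02.

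**Figure D4:**
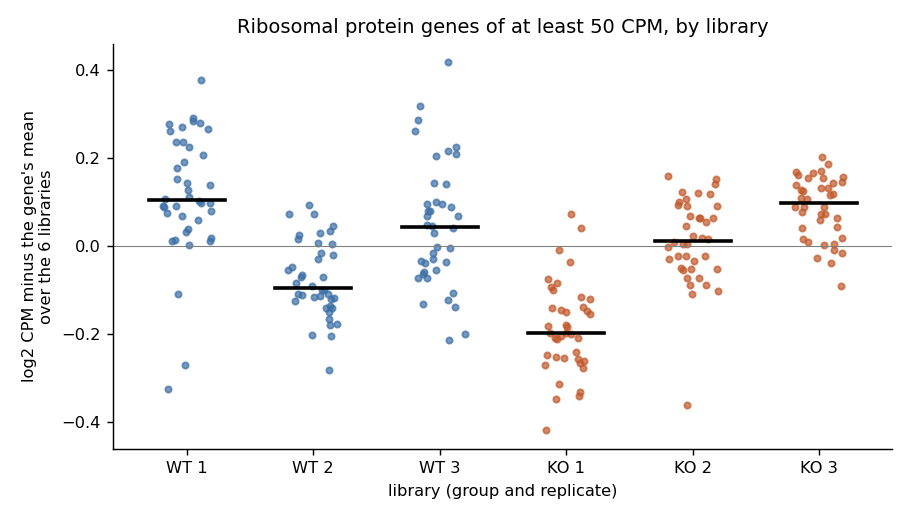
Log2 CPM (TMM-scaled) minus the gene's own mean over the 6 libraries (y axis) for the 40 ribosomal protein genes of at least 50 CPM, 1 point per gene, by library (x axis), with WT in blue, KO in orange and the median as a black line. In KO replicate 1 only 2 of 40 genes lie above their mean, and in KO replicate 3 there are 35.

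Ribosomal protein genes differ widely in counts although most of their proteins are made in near-equal amounts. The mean level of the 79 genes spanned 1813-fold, with a median of 50.2 CPM, and the 10 genes with the most counts held 62.6% of all ribosomal protein counts. Of all 84 genes, 16 had a mean under 5 CPM, 28 lay between 5 and 50, 31 between 50 and 500, and 9 at 500 or more. Per kilobase of transcript, high levels in WT were those of Rpl8 (1456 ± 145 CPM per kb), Rplp1 (1307 ± 162) and Rpl4 (1234 ± 105), whose ranges of mean ± SD overlapped from each to the next (n = 3). In KO they were 1395 ± 184, 1067 ± 84.1 and 1190 ± 150 CPM per kb. Rps27l stood at 22 ± 1.83 CPM per kb in WT and 45.2 ± 6.73 in KO, and Rps27 at 19.0 ± 6.35 and 15.8 ± 1.91.

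Ribosomal protein genes have many processed pseudogenes, and reads of 51 bases may match several of them. Of the 84 transcripts, 81 shared at least one 51-base window with an annotated pseudogene, with a median of 8 pseudogenes per gene and up to 120 for Rpl7a. The median share of windows found in no other gene was 46.1%, against 100% in the other genes tested, and 48 of the 84 genes had under 50% of windows of their own, against 4.22% of the other genes. How reads with several matches were counted is not given in the sources used here. The median level was 161 CPM per kb in the 33 tested genes with at least 50% of windows unique and 21.0 CPM per kb in the 46 others. Across the 79 genes, which share their libraries, the Spearman correlation of unique share and CPM per kb was 0.47, as a description. Counting only unique windows as length narrowed the SD of the log2 levels over genes from 2.65 to 2.41. Fold changes followed the unique share less (Spearman -0.14), and with the 33 more unique genes alone there was again 1 gene called, Rps27l, and a median log2 fold change of -0.05.

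**Figure D5:**
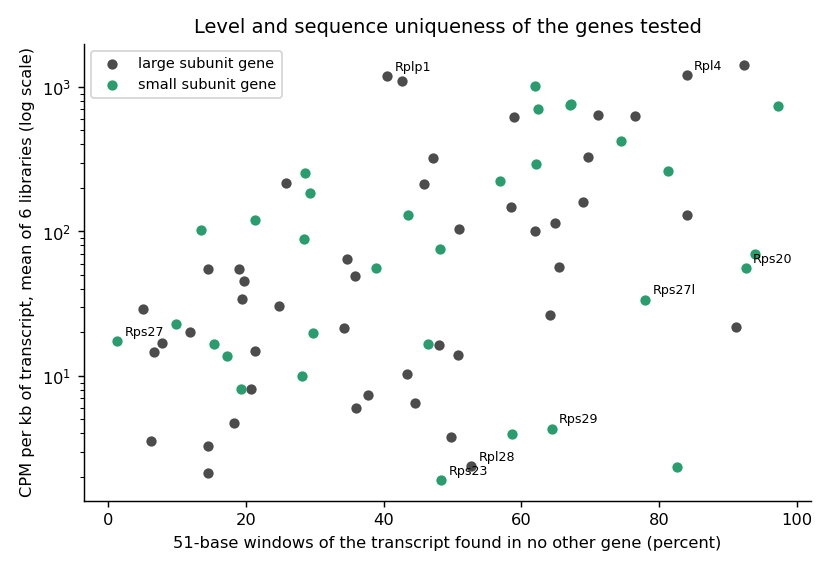
Mean level of 78 of the 79 genes tested (y axis, CPM per kilobase of transcript, log scale) against the percent of 51-base windows of its transcript found in no other gene (x axis), with large subunit genes in dark grey and small subunit genes in green. Levels run higher to the right, with medians over all 79 of 161 CPM per kb at 50% or above and 21.0 below, and genes of low level occur on both sides.

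Genes that stand around the ribosome were read from the same fit. Together they comprised 287 tested genes, and in KO 21 of them rose and 5 fell (9.06% called, against 18.8% of all genes tested). Ribosomal proteins that the symbol rule leaves out had 0 of 4 called, with log2 fold changes of 0.24 for Fau, 0.15 for Rpl36al and 0.05 for Gnb2l1, which encodes RACK1. None of 25 translation factors and other genes with TOP mRNAs was called, although 1 had an unadjusted p under 0.05, and their median log2 fold change was -0.01.

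Of 29 translation initiation factors tested, 4 were higher and none lower (13.8% called, against 18.8% of all genes tested). Eif5a, which carries hypusine and promotes elongation, rose from 280 ± 22.5 to 403 ± 5.60 CPM (log2 fold change 0.61, SE 0.09, FDR = 0.0055). Eif4h, a cofactor of the helicase Eif4a, rose from 228 ± 22.3 to 304 ± 11.9 CPM (log2 fold change 0.50, FDR = 0.0104, with adjusted p between 0.0141 and 0.0648 when 1 library was left out). The number called higher went to 1 without WT replicate 2 or WT replicate 3 and to 2 without WT replicate 1. Of 81 ribosome biogenesis factors, Pno1, which acts in small subunit maturation, was higher (23.8 ± 1.72 against 35.2 ± 2.97 CPM, log2 fold change 0.65, FDR = 0.0115) and Wdr75, a nucleolar protein of pre-rRNA transcription and processing, was lower (61.6 ± 1.94 against 47.6 ± 1.47 CPM, log2 fold change -0.29, FDR = 0.0489). Their adjusted p reached 0.067 and 0.177 when 1 library was left out. The 2 genes called were 2.47% of the biogenesis factors, against 18.8% of all genes tested. Of these 81 genes, 2 had all KO libraries above and 28 all KO libraries below WT in CPM (37.0% apart, against 42.6% of all genes tested). By direction, 16.7% of all genes tested had all KO libraries above and 25.9% all KO libraries below WT. The median log2 fold change of the 81 genes after TMM scaling was -0.06.

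Of 19 genes of RNA polymerase I and rDNA transcription, 1 was higher and 2 were lower (15.8%, against 18.8% of all genes tested). Taf1c, a subunit of the promoter factor SL1, fell from 45.4 ± 4.63 to 29.0 ± 2.77 CPM (log2 fold change -0.56, FDR = 0.0152), and Ttf1, the terminator factor of rDNA, from 70.1 ± 3.97 to 46.8 ± 7.12 CPM (log2 fold change -0.50, FDR = 0.0282). Polr2e, a subunit shared by the 3 nuclear RNA polymerases, rose from 66.1 ± 9.21 to 86.7 ± 10.3 CPM (log2 fold change 0.48, FDR = 0.0403), with WT and KO libraries overlapping in unscaled CPM. Leaving out 1 library took the adjusted p of these 3 genes up to 0.0684, 0.111 and 0.150, and Polr2e was not called after scaling by library size alone (adjusted p 0.0737).

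The mTORC1 and TOP mRNA regulators were called about as often as all genes, with 8 of 45 higher and 1 lower (20.0%, against 18.8%). Rragd, a Rag GTPase that brings mTORC1 to lysosomes, rose from 35.6, 28.2 and 30.1 CPM in WT to 87.1, 113 and 131 CPM in KO (log2 fold change 1.90, SE 0.16, FDR = 0.001). Eef2k, the kinase that inhibits elongation factor 2, rose from 20.5, 17.5 and 20.4 to 52.3, 58.1 and 48.0 CPM (log2 fold change 1.53, SE 0.12, FDR = 0.00088). Neither of these 2 genes overlapped between the groups, and each kept its call in all 6 fits that left out 1 library. Larp1, which binds the TOP motif, rose from 376 ± 19.4 to 466 ± 20.0 CPM (log2 fold change 0.40, SE 0.09, FDR = 0.0226). It lost the call without WT replicate 1, 2 or 3 (adjusted p 0.0857, 0.112 and 0.0712). Mtor was at 111 ± 1.13 CPM in WT against 112 ± 11.6 in KO (log2 fold change 0.10, 95% interval -0.11 to 0.31). The 4E-binding proteins repress cap-dependent initiation, and Eif4ebp1 had 5.97 ± 0.43 and 8.50 ± 2.85 CPM (log2 fold change 0.59, FDR = 0.165), while Eif4ebp2 fell from 185 ± 6.65 to 132 ± 17.7 CPM (log2 fold change -0.40, FDR = 0.04997, up to 0.155 with 1 library left out). The number of the list called higher went from 8 to 4 without WT replicate 2 or WT replicate 3, to 5 without WT replicate 1 or KO replicate 3 and to 6 without KO replicate 1, and it was 5 after RLE, library size or upper quartile scaling.

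Of 10 MYC network genes tested, 1 was higher and 1 lower (20.0%, against 18.8% of all genes tested). Mlxip, which pairs with Mlx as a nutrient sensor, rose from 242 ± 2.28 to 304 ± 29.2 CPM (log2 fold change 0.41, FDR = 0.0248), and Mlx fell from 60.2 ± 1.61 to 45.1 ± 4.68 CPM (log2 fold change -0.33, FDR = 0.0466). Their adjusted p reached 0.0973 and 0.146 when 1 library was left out. Myc had 155, 142 and 179 CPM in WT against 180, 175 and 188 CPM in KO (log2 fold change 0.27, FDR = 0.107), and the groups overlapped.

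Mitochondrial ribosomal proteins, which build the separate ribosome of mitochondria, had 6 of 75 genes higher and none lower (8.0%, against 18.8% of all genes tested), with a median log2 fold change of 0.07. Mrpl53 rose from 14.1 ± 2.13 to 26.0 ± 1.72 CPM (log2 fold change 0.97, SE 0.13, FDR = 0.0046) and kept its call in all 6 fits that left out 1 library. Mrpl20 rose from 22.9 ± 2.45 to 30.3 ± 1.82 CPM (log2 fold change 0.49, FDR = 0.0262), with adjusted p up to 0.121 when 1 library was left out. The number called higher went to 1 without WT replicate 2 or WT replicate 3, to 2 without KO replicate 1 or KO replicate 3, and to 1 after scaling by library size alone.

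Genes known as p53 targets were listed after the rise of Rps27l had been seen. Of 21 tested, 2 were higher and 1 lower (14.3%, against 18.8% of all genes tested). Perp, a membrane protein of desmosomes and apoptosis, had 0.452, 0.790 and 1.57 CPM in WT against 11.2, 7.49 and 5.67 CPM in KO (log2 fold change 3.18, SE 0.48, FDR = 0.0060). Bbc3, which encodes the apoptosis protein PUMA, rose from 21.3 ± 0.64 to 31.5 ± 5.59 CPM (log2 fold change 0.64, FDR = 0.0261, up to 0.105 with 1 library left out). Tnfrsf10b, a TRAIL receptor, fell from 9.50 ± 2.49 to 4.75 ± 0.67 CPM (log2 fold change -0.91, FDR = 0.0396, up to 0.135 with 1 library left out). Mdm2 and Cdkn1a, named after their values were seen, had log2 fold changes of -0.04 (95% interval -0.28 to 0.19) and 1.04 (-0.79 to 2.87).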

How the data were processed

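The authors isolated RNA from sorted CD4+YFP+ Treg cells (1 library per mouse), prepared polyA libraries without strand information, aligned 51-base single-end reads with HISAT to mm10 and counted them with featureCounts. They deposited raw read counts per gene, whole numbers without normalization. Versions, and how reads with several matches were counted, are not given in the sources used here. CPM printed here are counts over the library total. KO and WT were compared with edgeR 4.0.16 (TMM, QLF test, Benjamini-Hochberg over all 11658 genes with CPM above 1 in at least 3 libraries, the authors' filter) in R 4.3.3. The steps were also run on simulated counts with a fixed spread between libraries and no shifts shared by genes. Such a run checks the steps and does not show how the test performs on these data. Intervals are 95%. DESeq2 1.42.0, other scalings, other filters, a replicate block and leaving out each library were alternatives. CPM floors cover counting error only.

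Genes were matched to GENCODE vM21 (GRCm38, the build of mm10), which gave positions, transcripts and 51-base windows. The genes named are those past the threshold, the 3 with the most counts, paralogue pairs, genes that failed the filter, from each list the 2 called genes of smallest p per direction with Larp1, Mtor, Eif4ebp1 and Myc, and Mir142b and Bzrap1. Others are named as examples. Members and lists were chosen with earlier results of these data known. Single values of a few genes are left out here.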

Additional observations from a re-analysis of the deposited data

How the results depend on the processing

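The counts of cytosolic ribosomal protein genes called, 1 higher and 0 lower, and those of each subunit, were the same under every alternative run: RLE size factors, library size alone, upper quartile, TMM factors without these genes, DESeq2, the 3 edgeR tests together, no filter, filterByExpr, an FDR of 0.01, a replicate block, leaving out each library, and (chosen after seeing the data) genes with at least 50% of windows unique. At an unadjusted p under 0.05 there were 8 genes, 7 of them lower, under library size alone or upper quartile, and 4 under DESeq2, against 2. Over all genes tested the shares were 36.5% under library size alone, 36.7% under upper quartile and 34.9% under DESeq2, against 34.8%. Under library size alone or upper quartile 59 of the 79 log2 fold changes lay below 0, against 43. The median log2 fold change of the ribosomal protein genes lay between -0.10 and 0.03. It was above 0 only without WT replicate 3 or KO replicate 1. The share of counts, KO minus WT, was -0.13 percentage points, -0.10 with Bzrap1 left out of the totals and -0.20 to -0.045 without 1 library. The log2 differences of the paralogue ratios (KO minus WT) moved by less than the SD of the log2 ratios with 0.5 added to each CPM. The ratios themselves were not compared under this change. The differences also moved by less than that SD with 1 library left out. Leaving out 1 of 3 libraries can move a group mean by only part of its SD, so this shows little about stability. Without single libraries the difference changed sign for Rps4l over Rps4x and for Rpl36al over Rpl36a.

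Of the 287 genes around the ribosome, 21 were called higher and 5 lower. Library size alone gave 12 higher and 10 lower, upper quartile 10 lower, DESeq2 9 lower, the 3 edgeR tests together 3 lower, no filter 13 higher and 2 lower, and an FDR of 0.01 gave 6 higher and 0 lower. Leaving out each library gave 6 to 19 higher and 0 to 4 lower, and the cause of these moves was not tested. Over 40 named genes, 84 of 634 values under an alternative lost a call, 1 gained one (Eif4ebp1 without KO replicate 2), and 0 reversed a call.

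The replicate numbers showed no sign of pairing the samples. The correlations of same-numbered libraries' deviations were 0.07, -0.01 and -0.19, and those of differently numbered libraries ran from -0.17 to 0.20. With 3 libraries per group, these values cannot exclude a pairing. A replicate block left 1 ribosomal protein gene higher and 0 lower (median log2 fold change -0.0029), and gave 11 higher and 1 lower of the genes around the ribosome.

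With 3 libraries per group, p-values rest on the spread between 3 mice. Whether counts of genes with few unique windows include reads of their copies was not tested, and genes under 50 CPM mostly had intervals wider than 1.5-fold. Proteins, translation rates and rRNA were not measured.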
